A study of Homo sapiens with 3 samples.

Results

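The collagen genes were taken as the protein-coding genes whose symbol is COL, a number, A and a number, such as COL1A1, COL5A1 or COL12A1, which gave 44 genes among the 46427 in the table of this experiment. RNA from 3 lines was sequenced, 1 library each. Parental MM468 is MDA-MB-468, a human epithelial line derived from TNBC, labelled wild type and untreated. Adriamycin-resistant cells survived long-term exposure to adriamycin, a DNA-damaging anthracycline, at 10 to 140 nM, and paclitaxel-resistant cells survived paclitaxel, which stabilizes microtubules, at 2 to 320 nM. Both resistant lines carry the same wild-type genotype label and were grown in the same serum-containing medium as the parental cells. The sources do not say whether drug was present at harvest, and each resistant line is a single derivation, so an effect of the drug, of resistance and of that derivation cannot be told apart.

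With 1 library per line, no difference has a replicate check, and no p-value or SD can be given. The counts summed to between 32704885 and 47567927 per library. Fold changes were computed on counts normalized with edgeR's TMM method, for genes with 10 or more counts in 1 of the 2 libraries compared. In counts of genes, higher and lower mean a difference of 2-fold or more. The 95% intervals given for fold changes come from the exact binomial distribution of each pair of counts, so they hold counting error and nothing else. A gene with 0 counts in 1 library is given a lower bound of its fold change, taken against 3 counts, the number that a count of 0 allows. Levels of different genes are compared only as TPM, which is scaled to transcript length. All 7 epithelial markers examined had 100 or more counts, and EGFR was at 1152 to 1288 TPM in the 3 libraries. Of 8 fibroblast markers, THY1, DPT and PDPN had 0 counts in every library, and the summed fibroblast marker level was 222 TPM in parental MM468, 20.1 in adriamycin-resistant and 23.0 in paclitaxel-resistant cells, of which S100A4 alone was 219, 13.6 and 10.5 TPM. The part of these markers in the collagen values was not tested, and in such bulk RNA more cells with a transcript and more transcript per cell cannot be told apart. FAP stood the other way within that list, with 52, 398 and 544 counts in parental MM468, adriamycin-resistant and paclitaxel-resistant cells. ACTA2 did too, with 4, 15 and 56 counts. PDGFRA had 152, 12 and 16 counts, and PDGFRB had 0, 7 and 0.

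Collagens are extracellular matrix proteins built around a triple helix of chains with glycine at regular steps. Fibrillar collagens form the fibers of connective tissue, type IV collagens form the sheet of the basement membrane under epithelia, and FACIT collagens sit on the surface of fibrils. Others are anchored in the cell membrane or carry fragments with functions of their own. Carcinoma cells contribute mainly basement membrane chains, while fibroblasts are the usual source of fibrillar collagen in breast tissue.

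Collagen transcripts made up more of the library in both resistant lines. The 44 genes together had 12385 counts in parental MM468, 46180 in adriamycin-resistant and 70868 in paclitaxel-resistant cells, or 0.0379%, 0.0971% and 0.164% of all counts. Their summed level was 144 TPM in parental MM468, 235 in adriamycin-resistant and 494 in paclitaxel-resistant cells, a ratio to parental of 1.63 and 3.42. Without COL12A1, the sums were 143, 106 and 315 TPM. The remaining collagen genes together were thus lower than parental in adriamycin-resistant and higher in paclitaxel-resistant cells.

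**Figure D1:**
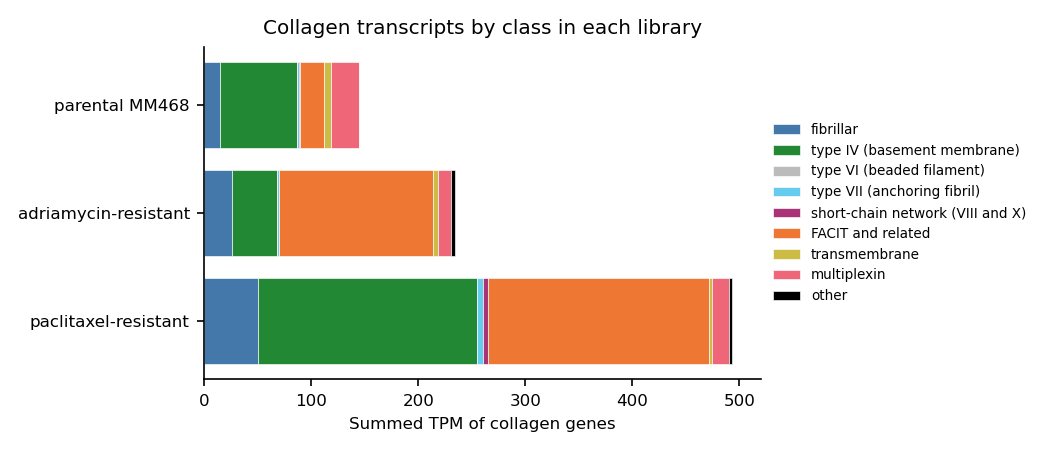
Summed TPM of the collagen genes (horizontal axis) in each of the 3 libraries, with the bar divided by collagen class. The FACIT part grows from 21.9 TPM in parental MM468 to 143 in adriamycin-resistant and 207 in paclitaxel-resistant cells, and the type IV part is 71.1, 42.5 and 205 TPM.

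The classes divided these levels differently in each line. Type IV chains held 49.3% of collagen TPM in parental MM468, 18.1% in adriamycin-resistant and 41.5% in paclitaxel-resistant cells. FACIT chains held 15.2%, 61.1% and 42.0%, respectively. The fibrillar class kept a share of 10.1% to 10.9% in the 3 libraries, although its summed level went from 15.0 TPM to 25.6 in adriamycin-resistant and 50.1 in paclitaxel-resistant cells. Multiplexins, which are basement membrane proteoglycans, were at 25.9, 12.7 and 16.0 TPM, and the transmembrane class at 6.52, 4.72 and 2.62 TPM. Type VI collagen, which forms beaded filaments, was nearly absent, with at most 9 counts over its 5 genes in any library.

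Detection was uneven along the family. Of the 44 genes, 20 had 100 or more counts in at least 1 library, 11 had 10 to 99 at most, 4 had 1 to 9 at most, and 9 had 0 counts in every library. The 9 were COL1A2, COL2A1, COL11A1, COL6A2, COL6A5, COL6A6, COL9A1, COL19A1 and COL22A1. The 4 genes under 10 counts were COL6A1, COL6A3, COL10A1 and COL20A1.

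**Figure D2:**
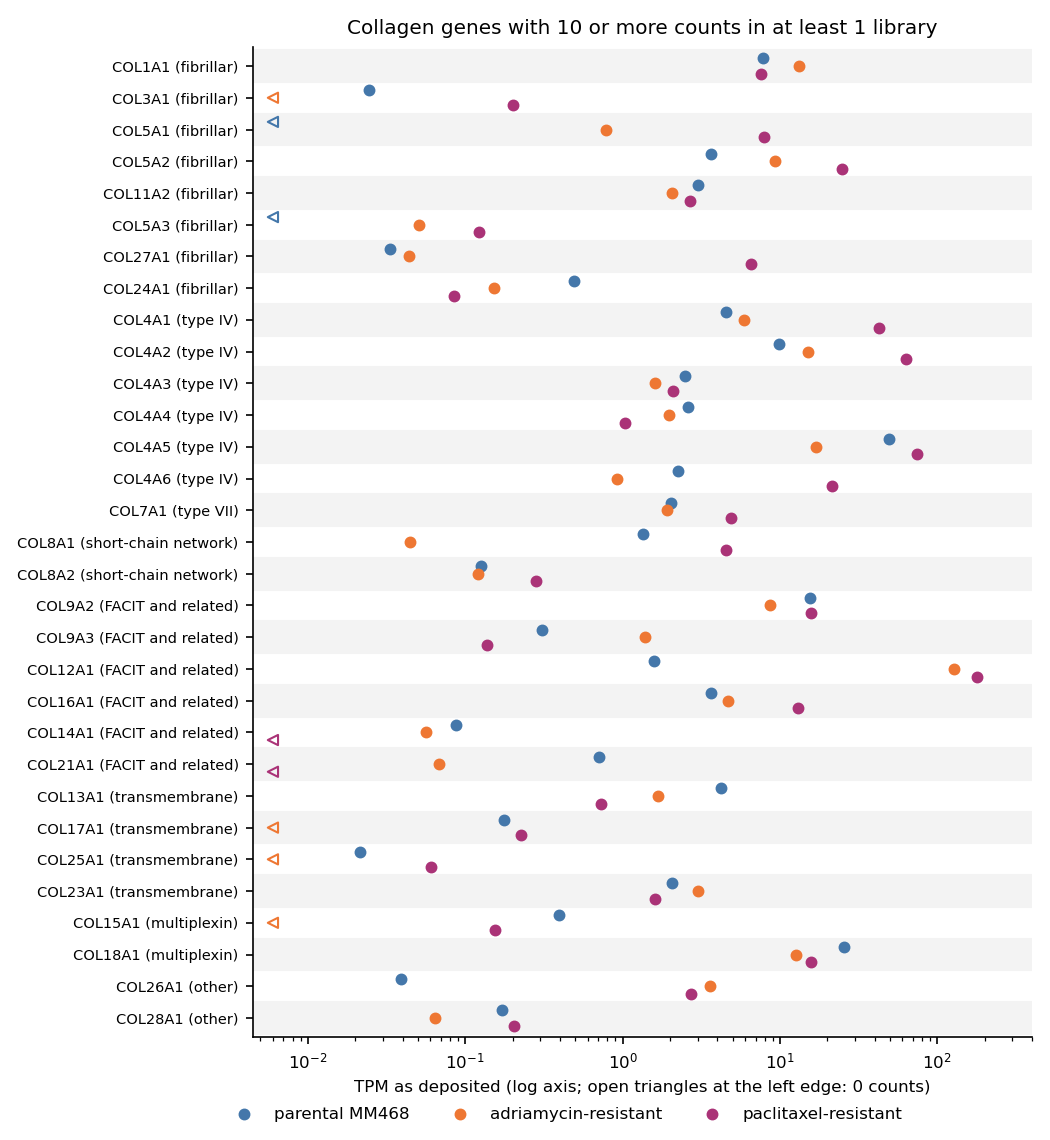
Level of the 31 collagen genes with 10 or more counts in at least 1 library, as TPM on a log axis, with 1 point per library and open triangles at the left edge for 0 counts. COL12A1 moves from 1.60 TPM in parental MM468 to 129 and 178 TPM in the resistant lines, the highest level of the family in both, while COL4A5 leads in parental MM468 at 49.4 TPM.

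In adriamycin-resistant against parental MM468, 27 of the 44 genes could be compared, of which 5 were higher (18.5%) and 9 lower (33.3%). Over the 17950 genes compared, 10.9% were higher and 11.4% lower, and over protein-coding genes alone the shares were 8.75% and 10.1%. With a minimum of 100 counts, 4 collagen genes were lower, where 6.09% of all genes were higher and 7.98% lower. The median log2 fold change was -0.55 for the collagen genes and 0.02 for all genes. In paclitaxel-resistant against parental MM468, 31 collagen genes were compared, with 13 higher (41.9%) and 8 lower (25.8%). The background there was larger, with 20.5% of 19099 genes higher and 13.5% lower, or 13.9% and 14.5% of protein-coding genes. With a minimum of 100 counts, 3 collagen genes were lower, and the background was 12.5% higher and 11.5% lower. The medians were 0.23 and 0.07.

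Some of these members passed the minimum only through the library where they were high, which fixes their direction. There were 6 such genes in adriamycin-resistant and 9 in paclitaxel-resistant cells. Among the members with 10 or more counts in both libraries, 3 of 21 were higher and 5 lower in adriamycin-resistant cells, where 5.77% and 9.33% of all such genes were. In paclitaxel-resistant cells, 7 of 22 were higher and 5 lower, where 11.2% and 13.2% of all such genes were.

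COL12A1 (NCBI Gene ID 1303) had the largest difference from parental MM468 among members with 10 or more counts in every library. It encodes the type XII chain, a FACIT collagen that binds along type I fibrils, and lies on chromosome 6 from 75084326 to 75206053 (GRCh38.p14, RefSeq). It had 277 counts in parental MM468, 32669 in adriamycin-resistant and 35724 in paclitaxel-resistant cells. Both resistant libraries were far above the parental one. The fold change was 80.1 in adriamycin-resistant cells (95% interval 71.2 to 90.5). In paclitaxel-resistant cells it was 83.3 (74.0 to 94.1). Between the resistant lines it was 1.01 (0.999 to 1.03) on TMM-scaled counts. As TPM the levels were 129 and 178, which were 54.8% and 36.1% of all collagen TPM, against 1.11% in parental MM468.

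The genes beside COL12A1 were not higher with it. Of the 5 protein-coding genes on each side, 9 could be compared in adriamycin-resistant cells, with 0 higher, 3 lower and a median log2 fold change of -0.15. In paclitaxel-resistant cells, 0 of 10 were higher and 4 lower, with a median of -0.70 and a highest value of 0.48. Its direct neighbour CD109, which encodes a surface protein that binds TGF-beta, had 4651 counts in parental MM468, 1316 in adriamycin-resistant and 1350 in paclitaxel-resistant cells. These neighbours were looked up after the value of COL12A1 had been seen.

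The bases upstream of COL12A1 and of the other members with large differences, COL27A1 and COL5A1, are shown with those beside COL4A5, a gene that shares its upstream region with COL4A6. They come from the RefSeq promoter table on GRCh38.p14, in which 32 of the 44 genes had an entry, and run 5′ to 3′ on the strand of the gene. The COL5A1 stretch stops short of the gene's start. COL12A1 is at chr6:75206054-75206303 on the minus strand, COL27A1 at chr9:114155287-114155536, COL5A1 at chr9:134641553-134641772 and COL4A5 at chrX:108439588-108439837, these last on the plus strand. The COL27A1 window ends at the start used in that table, which lies inside the RefSeq extent of the gene. Capitals mark matches on either strand to the GC box GGGCGG, the promoter element TATAAA, the box CCAAT, the letters GCGTG (the core bound by AhR with ARNT) or TGANTCA (AP-1 site).
COL12A1: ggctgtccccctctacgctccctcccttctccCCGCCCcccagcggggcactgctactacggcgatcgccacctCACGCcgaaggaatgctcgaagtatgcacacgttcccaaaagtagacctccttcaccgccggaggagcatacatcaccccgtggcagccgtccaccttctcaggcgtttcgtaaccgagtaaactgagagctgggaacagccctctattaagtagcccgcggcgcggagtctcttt
COL27A1: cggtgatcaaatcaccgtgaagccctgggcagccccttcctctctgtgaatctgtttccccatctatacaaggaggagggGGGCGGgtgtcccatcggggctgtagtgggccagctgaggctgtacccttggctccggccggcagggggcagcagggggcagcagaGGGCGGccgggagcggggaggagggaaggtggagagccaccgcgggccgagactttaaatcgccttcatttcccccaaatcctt
COL5A1: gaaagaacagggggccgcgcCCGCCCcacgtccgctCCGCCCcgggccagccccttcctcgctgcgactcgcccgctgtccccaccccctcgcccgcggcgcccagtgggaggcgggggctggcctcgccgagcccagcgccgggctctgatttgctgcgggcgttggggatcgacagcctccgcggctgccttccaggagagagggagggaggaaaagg
COL4A5: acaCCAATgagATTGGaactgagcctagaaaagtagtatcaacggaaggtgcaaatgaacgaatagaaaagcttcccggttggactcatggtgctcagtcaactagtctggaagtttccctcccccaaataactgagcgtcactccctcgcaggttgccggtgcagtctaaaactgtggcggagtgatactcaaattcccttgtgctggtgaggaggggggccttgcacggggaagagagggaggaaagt
The COL12A1 window held 1 GC box, 218 bases upstream of the start, and 1 GCGTG core, 176 bases upstream, both on the opposite strand. COL27A1 and COL5A1 each had 2 GC boxes. COL4A5 had 2 CCAAT boxes in opposite orientation and no GC box, at a GC content of 51.2% against 75.5% for COL5A1. Among 35116 windows of 250 bases upstream of a start, 42.6% held GGGCGG, 10.7% TATAAA, 32.0% CCAAT, 32.2% GCGTG and 6.57% TGANTCA. Of the 32 members with an entry, 21, 7, 11, 14 and 1 held them, respectively. A member was counted if any of its windows held the letters, while the percentages are per window. The numbers are thus in unlike units and cannot be set against each other directly. A match describes the letters and not binding, and overlapping motifs were counted separately.

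The other FACIT genes did not share the size of that change. COL16A1, found beside fibrils and near basement membranes, had 288 counts in parental MM468, 582 in adriamycin-resistant and 1028 in paclitaxel-resistant cells, and was 1.37-fold (1.19 to 1.59) and 2.31-fold higher (2.02 to 2.64). COL9A2, a chain of the cartilage collagen type IX, had 658, 560 and 828 counts. It was 1.73-fold lower in adriamycin-resistant cells, and in paclitaxel-resistant cells its log2 fold change of -0.30 turned to 0.01 on the TPM scale. COL9A3, its partner chain, had 11, 79 and 7 counts, 4.84-fold higher (2.58 to 10.2) in adriamycin-resistant cells, where it reached 1.39 TPM. The last chain of the trimer, COL9A1, had 0 counts. COL21A1 went from 42 counts to 7 in adriamycin-resistant and 0 in paclitaxel-resistant cells, 8.67-fold lower (3.93 to 23.3) in the first and lower by a factor of at least 21.7 in the second. COL14A1, which binds fibrils much as COL12A1 does, had 12, 12 and 0 counts. COL9A3 overlaps TCFL5, which had 788, 1084 and 1343 counts.

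**Figure D3:**
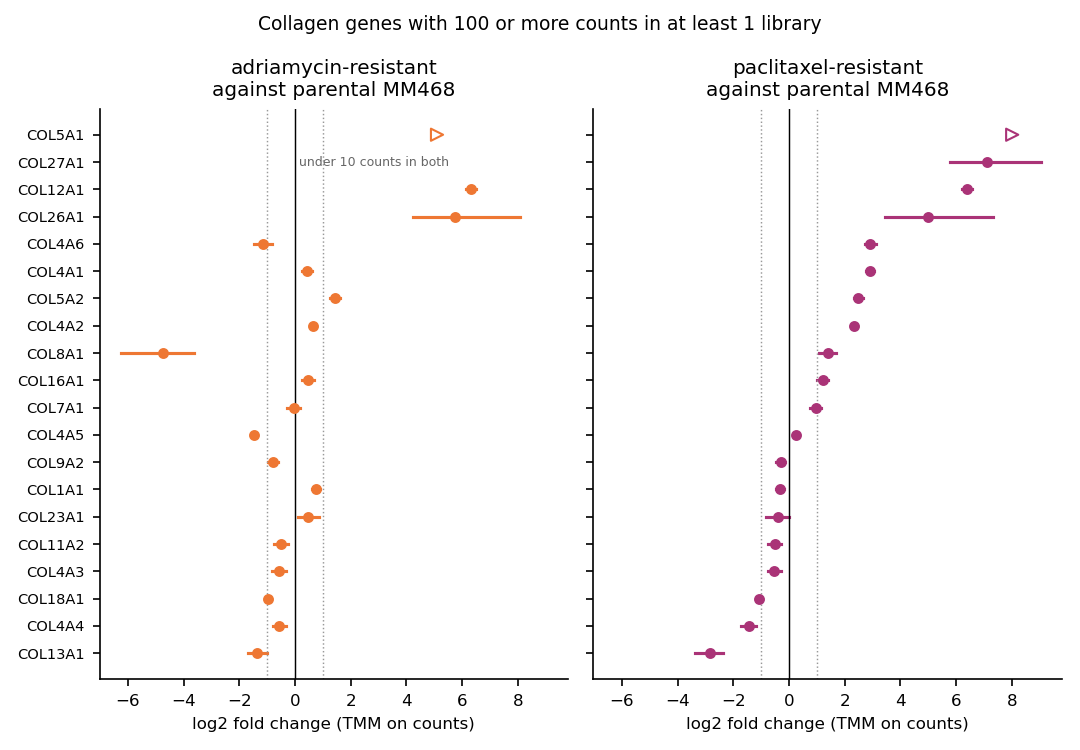
Log2 fold changes of the 20 collagen genes with 100 or more counts in at least 1 library, adriamycin-resistant cells (left) and paclitaxel-resistant cells (right) against parental MM468. Points are TMM-normalized fold changes, lines their 95% counting intervals, open triangles lower bounds for genes with 0 parental counts, and dotted lines 2-fold. Both panels use the same parental library, and COL12A1 sits at 6.32 and 6.38.

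The fibrillar genes split into chains that were on in every line, chains that appeared in a resistant line, and chains that stayed off. COL5A2 (chromosome 2, 189031898 to 189441111), a chain of type V collagen that sets the diameter of type I fibrils, had 325 counts in parental MM468, 1285 in adriamycin-resistant and 2833 in paclitaxel-resistant cells. It was 2.69-fold higher in adriamycin-resistant cells (2.38 to 3.04) and 5.63-fold higher in paclitaxel-resistant cells (5.02 to 6.34). Its partner COL5A1 (NCBI Gene ID 1289; chromosome 9, 134641803 to 134844843) had 0, 151 and 1201 counts. The bound was 34.2-fold higher or more in adriamycin-resistant cells and 259-fold or more in paclitaxel-resistant cells. The level was 7.37-fold higher in paclitaxel-resistant than in adriamycin-resistant cells (6.23 to 8.80). COL5A2 thus stood without COL5A1 in the parental library, and the ratio of COL5A2 to COL5A1 was 11.7 in adriamycin-resistant and 3.17 in paclitaxel-resistant cells on the TPM scale. The gene LOC101448202 overlaps COL5A1 and had 0, 461 and 14 counts. Reads of the overlapping genes cannot be told apart here, since the use of strand in counting is not given in the sources used here. COL5A3 had 0, 8 and 14 counts.

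COL27A1 (NCBI Gene ID 85301; chromosome 9, 114154098 to 114312511), a fibrillar collagen of cartilage, was high in paclitaxel-resistant cells and near 0 in the others, with 4 counts in parental MM468, 9 in adriamycin-resistant and 885 in paclitaxel-resistant cells. Its level was 140-fold that of parental MM468 (55.6 to 526), an interval whose width comes from the 4 parental counts, and 90.0-fold that of adriamycin-resistant cells (47.8 to 200). Of the 10 protein-coding genes around COL27A1, 6 could be compared in paclitaxel-resistant cells, and 2 were higher and 1 lower, with a median log2 fold change of 0.44, where 20.5% and 13.5% of all genes were. One of them, the zinc-finger gene ZNF618, had 0, 10 and 1109 counts and was picked after the values were seen. The genes AMBP and KIF12, which lie between ZNF618 and COL27A1, had at most 4 counts.

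COL1A1, the main chain of type I collagen, had 659 counts in parental MM468, 1629 in adriamycin-resistant and 820 in paclitaxel-resistant cells. Its partner COL1A2 had 0 counts in all 3 libraries, although the usual type I trimer contains both chains. COL1A1 was 1.68-fold higher in adriamycin-resistant cells (1.53 to 1.84) and 1.24-fold lower in paclitaxel-resistant cells (1.12 to 1.38). With scaling by library size only, its log2 fold change in paclitaxel-resistant cells went from -0.31 to -0.09. Its levels were 7.81, 13.3 and 7.61 TPM. COL3A1, a chain of reticular fibers that lies next to COL5A2 with 19151 bases between them, had 2, 0 and 21 counts, so that the level of COL5A2 was 147 times that of COL3A1 in parental MM468 and 124 times in paclitaxel-resistant cells. COL11A2 was 1.42-fold lower in both resistant lines, at 281, 292 and 306 counts. COL24A1 had 55, 27 and 12 counts, 2.99-fold lower (1.86 to 4.94) in adriamycin-resistant and 7.02-fold lower (3.75 to 14.6) in paclitaxel-resistant cells.

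Type IV collagen is encoded by 3 pairs of genes, each pair lying head to head on 1 chromosome. COL4A1 and COL4A2 form the trimer of most basement membranes, COL4A3 and COL4A4 assemble with COL4A5, and COL4A6 also assembles with COL4A5. The pairs stood differently in the resistant lines.

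COL4A1 and COL4A2 (chromosome 13, with 126 bases between them) were both higher, mainly in paclitaxel-resistant cells. COL4A1 had 437 counts in parental MM468, 867 in adriamycin-resistant and 5045 in paclitaxel-resistant cells, and COL4A2 had 943, 2189 and 7434. The libraries kept the same order for both genes. COL4A1 was 1.35-fold higher in adriamycin-resistant cells (1.20 to 1.52) and 7.46-fold higher in paclitaxel-resistant cells (6.76 to 8.25). COL4A2 was 1.58-fold (1.46 to 1.70) and 5.09-fold higher (4.76 to 5.46). On the TPM scale there was more COL4A2 than COL4A1 in each library, by 2.19 times in parental MM468, 2.56 in adriamycin-resistant and 1.49 in paclitaxel-resistant cells. Of the 10 protein-coding genes around COL4A2, COL4A1 among them, 4 were higher in paclitaxel-resistant cells and 0 lower, where 20.5% of all genes were higher. Besides COL4A1 these were ANKRD10, with 5297, 6280 and 26127 counts, and TNFSF13B and MYO16, which had 0 counts in the other libraries and passed the minimum only through the 25 and 24 counts in paclitaxel-resistant cells. They were looked up after the values of COL4A2 had been seen. Between the starts of the pair, a CCAAT box lies 105 bases upstream of COL4A2, at chr13:110307170-110307192 with its flanking bases (plus strand, capitals mark CCAAT).
COL4A2: ccgagctccCCAATttgttggcg

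COL4A5 and COL4A6 (chromosome X, 379 bases apart) were lower in adriamycin-resistant cells. COL4A5 had 4620 counts in parental MM468, 2469 in adriamycin-resistant and 8413 in paclitaxel-resistant cells, 2.75-fold lower in adriamycin-resistant cells (2.62 to 2.89) and 1.18-fold higher in paclitaxel-resistant cells (1.14 to 1.22). COL4A6 had 215, 142 and 2510 counts, 2.23-fold lower (1.80 to 2.77) and 7.54-fold higher (6.56 to 8.71), respectively. The neighbours therefore differed in paclitaxel-resistant cells, where COL4A6 stood much farther above its parental level than COL4A5. The TPM ratio of COL4A5 to COL4A6 was 22.1 in parental MM468, 18.5 in adriamycin-resistant and 3.51 in paclitaxel-resistant cells. Between the resistant lines, COL4A6 was 16.4-fold higher in paclitaxel-resistant cells (13.8 to 19.6) and COL4A5 3.16-fold higher (3.02 to 3.31).

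COL4A3 and COL4A4 (chromosome 2, 135 bases apart) were at low levels and not higher in either resistant line. COL4A3 had 277, 271 and 298 counts and was at a log2 fold change of -0.59 in adriamycin-resistant and 1.44-fold lower in paclitaxel-resistant cells (1.22 to 1.70). COL4A4 had 316, 314 and 181 counts, 1.48-fold lower (1.26 to 1.74) and 2.70-fold lower (2.24 to 3.26). COL4A4 overlaps RHBDD1, which had 1035, 1686 and 695 counts.

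**Figure D4:**
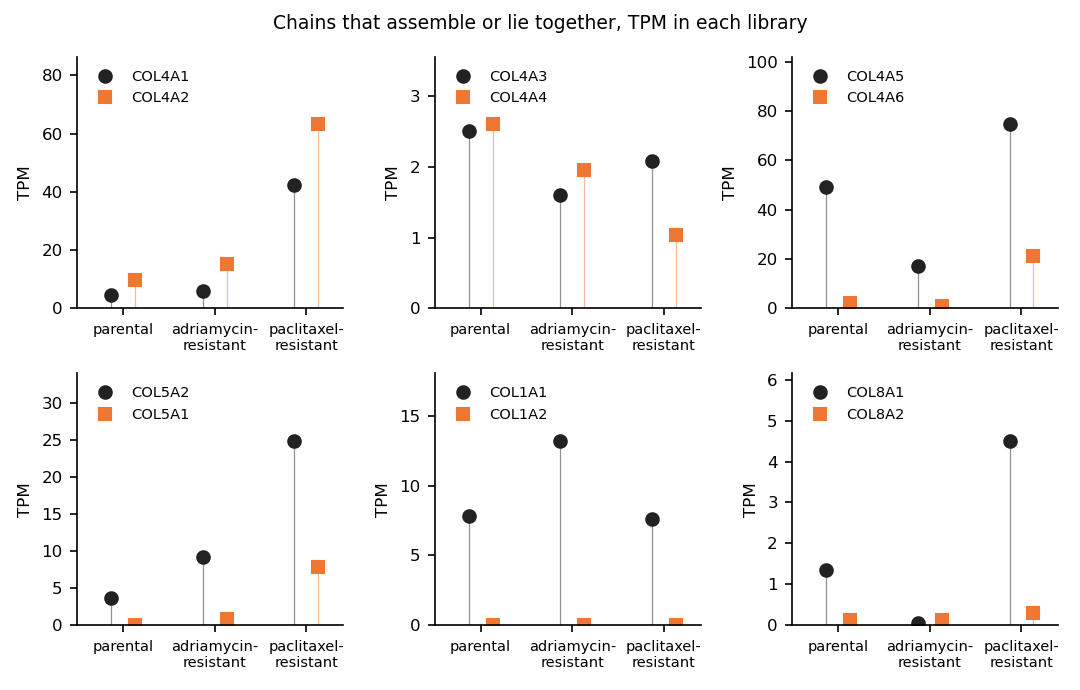
TPM (vertical axis, from 0, with its own scale in each panel) of 6 pairs of collagen chains in the parental line and the adriamycin-resistant and paclitaxel-resistant cells, 1 library each. COL4A1 and COL4A2 stand highest in paclitaxel-resistant cells, COL4A6 is high in paclitaxel-resistant cells alone, COL5A1 is 0 in parental MM468, and COL1A2 is 0 throughout.

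COL7A1, the chain of the anchoring fibrils that tie basement membrane to the matrix below, had 269, 384 and 810 counts. It did not differ beyond counting error in adriamycin-resistant cells (1.03-fold lower, 0.879 to 1.21) and was 1.95-fold higher in paclitaxel-resistant cells (1.69 to 2.24). COL8A1, a short-chain collagen of vessel walls and Descemet's membrane, had 112 counts in parental MM468, 6 in adriamycin-resistant and 454 in paclitaxel-resistant cells. It was 26.8-fold lower in adriamycin-resistant cells (12.2 to 76.5) and 2.62-fold higher in paclitaxel-resistant cells (2.13 to 3.25), and differed 68.8-fold between them (32.0 to 192). Its partner COL8A2 had 10, 15 and 27 counts.

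Of the transmembrane genes, 0 of 3 compared were higher and 2 lower in adriamycin-resistant cells, and in paclitaxel-resistant cells 1 of 4 was higher and 1 lower. Of the 2 multiplexin genes, 1 was lower in adriamycin-resistant and both in paclitaxel-resistant cells. The shares of all genes that were lower were 11.4% and 13.5%. COL13A1, a membrane collagen at cell-matrix contacts, had 195 counts in parental MM468, 112 in adriamycin-resistant and 42 in paclitaxel-resistant cells, 2.56-fold lower (2.02 to 3.26) and 7.16-fold lower (5.13 to 10.3). COL17A1, a hemidesmosome component of basal epithelium, had 15, 0 and 24 counts. COL23A1 had 95, 195 and 111 counts, and COL25A1 had 4, 0 and 13. COL18A1, whose cleavage releases endostatin, had 2189, 1643 and 1619 counts and was 1.96-fold lower in adriamycin-resistant cells (1.84 to 2.09) and 2.09-fold lower in paclitaxel-resistant cells (1.96 to 2.23). On library size only, its change in paclitaxel-resistant cells was under 2-fold, with a log2 fold change of -0.84. COL18A1 overlaps SLC19A1, which had 1093, 1097 and 609 counts. COL15A1, the other multiplexin, had 32, 0 and 16 counts.

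COL26A1 was at 3 counts in parental MM468, 243 in adriamycin-resistant and 152 in paclitaxel-resistant cells. The ratios were 53.3 (18.6 to 269) and 31.7 (11.0 to 161), with intervals set by the 3 parental counts. Its level reached 3.61 TPM in adriamycin-resistant and 2.72 in paclitaxel-resistant cells. COL28A1 had 27, 15 and 33 counts.

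Paclitaxel-resistant and adriamycin-resistant cells were also compared with each other. Of 30 collagen genes compared, paclitaxel-resistant cells had 13 at a higher (43.3%) and 5 at a lower level (16.7%), where 19.4% and 14.0% of 19327 genes were. Among those with 10 or more counts in both libraries, the numbers were 7 and 3 of 21 (33.3% and 14.3%), against 12.3% and 12.5% of all such genes. Of protein-coding genes, 13.5% were higher and 14.6% lower, and with a minimum of 100 counts the shares of all genes were 12.6% and 11.6%. The median log2 fold change was 0.72, against 0.04 for all genes. By class, 4 of 6 type IV genes were higher and 0 lower, and 4 of 8 fibrillar genes were higher and 2 lower. COL1A1 was among the lower, at 2.14-fold (1.97 to 2.33). On library size only its log2 fold change went from -1.10 to -0.85. COL9A3 was also lower, at 7 counts against 79 and a log2 fold change of -3.58.

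Collagen chains are hydroxylated and folded in the endoplasmic reticulum, exported in large carriers, trimmed of their propeptides outside the cell, cross-linked, and bound by receptors. Genes of these steps and of TGF-beta signalling, a known inducer of collagen transcription, were followed in 7 lists. Of the 68 listed genes compared in adriamycin-resistant cells, 12 were higher and 10 lower (17.6% and 14.7%, against 10.9% and 11.4% of all genes). In paclitaxel-resistant cells 14 were higher and 6 lower (20.6% and 8.82%, against 20.5% and 13.5%). The median log2 fold change of the listed genes was 0.01 in adriamycin-resistant and 0.00 in paclitaxel-resistant cells, against 0.02 and 0.07 for all genes.

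Of 19 chain modification and folding genes, 3 were higher and 1 lower in adriamycin-resistant cells, and in paclitaxel-resistant cells 3 of 18 were higher and 0 lower. SERPINH1, the collagen chaperone HSP47, had 4079, 10892 and 13266 counts, 1.81-fold (1.75 to 1.88) and 2.10-fold higher (2.03 to 2.18). P3H2, a prolyl 3-hydroxylase that acts on type IV collagen, had 1035, 1765 and 5781 counts and was 3.61-fold higher in paclitaxel-resistant cells (3.38 to 3.86). P3H1, which modifies fibrillar collagen, was 2.82-fold lower in adriamycin-resistant cells (2.52 to 3.17), and P3H4 2.15-fold higher there (1.86 to 2.50). FKBP10, a collagen prolyl isomerase chosen after its values were seen, had 0, 33 and 82 counts.

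Of 11 export genes, 0 were higher in either resistant line. SEC24D, the cargo adaptor of COPII carriers, had 848, 293 and 1244 counts and was 4.26-fold lower in adriamycin-resistant cells (3.73 to 4.88). SAR1A, the GTPase that starts these carriers, was 2.54-fold lower in paclitaxel-resistant cells (2.42 to 2.68).

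Propeptide cleavage genes were higher in 2 of 4 cases in adriamycin-resistant and 4 of 5 in paclitaxel-resistant cells, with 0 lower. ADAMTS3, a procollagen N-proteinase, had 31, 248 and 431 counts, 5.42-fold (3.73 to 8.17) and 8.96-fold higher (6.24 to 13.4). PCOLCE, an enhancer of C-propeptide cleavage, had 65, 259 and 217 counts. The usual N-proteinase of type I collagen, ADAMTS2, had 0 counts in all libraries. Among 6 cross-linking genes compared, LOX, the lysyl oxidase, had 103, 188 and 702 counts, 4.40-fold higher in paclitaxel-resistant cells (3.58 to 5.47). LOXL1 had 26, 12 and 141 counts, 3.16-fold lower in adriamycin-resistant cells (1.55 to 6.94) and 3.50-fold higher in paclitaxel-resistant cells (2.29 to 5.55). LOXL2, which acts on type IV collagen, was 2.28-fold lower in adriamycin-resistant cells (2.03 to 2.56). In the cross-linking list as a whole, 1 gene was higher and 2 lower in adriamycin-resistant cells, and in paclitaxel-resistant cells 2 were higher and 0 lower.

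**Figure D5:**
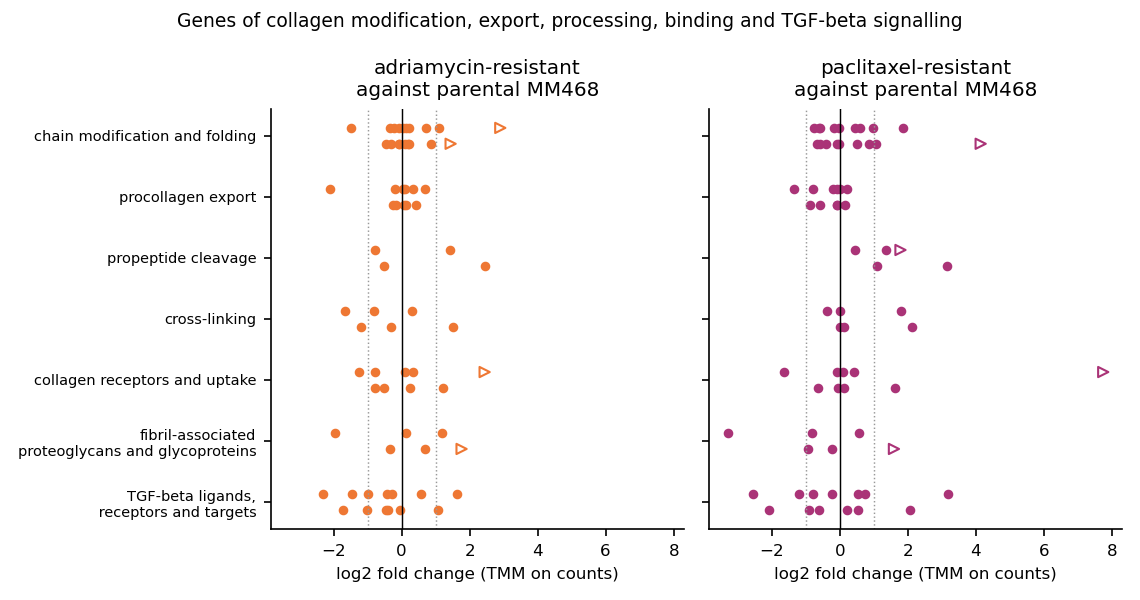
Log2 fold changes of the genes in 7 lists around collagen biology, adriamycin-resistant cells (left) and paclitaxel-resistant cells (right) against the same parental library, with 1 point per gene compared, open triangles for bounds taken against 3 counts, and dotted lines at 2-fold. The open triangle farthest right in the paclitaxel-resistant panel is ITGA1, whose level there is at least 214 times the parental bound of 3 counts.

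Of the receptors, ITGA1, the integrin subunit that prefers type IV collagen, had 0 counts in parental MM468, 24 in adriamycin-resistant and 996 in paclitaxel-resistant cells. Against the 3 counts that a count of 0 allows, it was at least 5.44-fold and 214-fold higher, respectively. DDR1, a receptor kinase for several collagens, had 25937, 22061 and 12977 counts, 1.73-fold lower (1.70 to 1.76) and 3.09-fold lower (3.03 to 3.16). MRC2, an endocytic collagen receptor, was 2.31-fold higher in adriamycin-resistant cells (1.92 to 2.79). The list held 2 higher and 1 lower of 9 genes in each resistant line.

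Among fibril-associated proteins, 2 of 6 genes were higher and 1 lower in adriamycin-resistant cells, and 1 higher and 1 lower in paclitaxel-resistant cells. FN1, which encodes fibronectin, had 1744, 2016 and 276 counts and was 9.77-fold lower in paclitaxel-resistant cells (8.61 to 11.1). TNC, which encodes tenascin C, was 3.89-fold lower in adriamycin-resistant cells (3.64 to 4.16), and TNXB, which encodes tenascin X, 2.28-fold higher there (1.62 to 3.28). LUM and FMOD had 0 counts in every library, and DCN had 14 counts in paclitaxel-resistant cells alone.

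Of 13 TGF-beta genes, 2 were higher and 4 lower in adriamycin-resistant cells, and 2 higher and 3 lower in paclitaxel-resistant cells. TGFB2, a ligand, had 7412, 3280 and 1963 counts, 3.33-fold lower (3.19 to 3.47) and 5.84-fold lower (5.56 to 6.14). CCN2, which encodes a matricellular target, had 7076, 2099 and 2577 counts, 4.96-fold and 4.25-fold lower. SMAD3, a signal transducer, was 2.73-fold and 2.30-fold lower, and the inhibitor SMAD7 2.01-fold and 1.51-fold lower. SMAD4, another transducer, named after its values were seen, had 16, 35 and 104 counts, or 0.118, 0.175 and 0.646 TPM. For comparison, SMAD3 was at 18.9, 6.72 and 10.4 TPM. From its low level SMAD4 was 4.18-fold higher in paclitaxel-resistant cells (2.47 to 7.62), and the origin of these few reads was not tested. TGFB3 was 3.08-fold higher in adriamycin-resistant cells (2.15 to 4.53).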

How the data were processed

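Total RNA of 3 cell lines was sequenced after TruSeq Stranded mRNA library preparation, 1 library per line. The labels name the MagMAX mirVana kit and the paper's methods the RNeasy kit for RNA extraction. The submitters' processing notes name Trimmomatic 0.39, HISAT2 2.2.1, StringTie 2.2.1 and GRCh38. The annotation release and the use of strand are not given in the sources used here. The authors deposited whole-number read counts for 46427 genes, not normalized, beside the FPKM values and the TPM values they computed, with TPM summing to 1000000 in each library. The total was 32704885 counts in parental MM468, 47567927 in adriamycin-resistant and 43242628 in paclitaxel-resistant cells.

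Counts of each pair of lines were normalized with TMM in edgeR 4.0.16 (R 4.3.3) on genes with 10 or more counts in 1 of the 2 libraries. Log2 fold changes used a prior count of 0.125, and a call is a change of at least 2-fold. With 1 library per group there are no residual degrees of freedom, so the quasi-likelihood test was not possible. Intervals at 95% are exact binomial (scipy 1.17.1). Bounds use 3 counts per library. The steps were tested on simulated data. Results were recomputed with size factors from DESeq2 1.42.0, with TMM over all 3 libraries, with scaling by library size alone, without the count minimum or with one of 100 counts, and with a prior count of 2, a 4-fold threshold, and the deposited TPM or FPKM values with a pseudocount of 1 or 0.1.

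All 44 collagen genes are accounted for, with the counts of each library for those at 10 or more. In the other lists, genes with 100 or more counts and a change of at least 2-fold against parental MM468 are named, at most 6 per list, and 1 of them is not reported here. The collagen genes and lists were chosen with earlier results of these data known. Positions are those of RefSeq on GRCh38.p14.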

Additional observations from a re-analysis of the deposited data

Results flagged for a closer look

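COL4A6, COL8A1 and COL9A3 were flagged because the 2 resistant lines moved at least 2-fold in opposite directions from the same parental library. The difference has no replicate check and was not tested. COL4A6 had a log2 fold change of -1.16 in adriamycin-resistant and 2.91 in paclitaxel-resistant cells. COL8A1 had -4.75 and 1.39, of which the first rests on 6 counts in adriamycin-resistant cells. COL9A3 had 2.28 and -1.26, and the interval of the second, 0.861-fold to 7.40-fold lower, includes no change.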

How the results depend on the processing

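No paired analysis was possible because each line has a single library and no replicate number. The numbers of collagen genes at least 2-fold changed stayed within 1.5 times of those given with DESeq2 size factors, library size only, TMM on all 3 libraries, a prior count of 2, and, chosen after seeing the data, genes with 0 counts set to 3 counts. With library size only, the median of all genes stood higher on the log2 scale by 0.23 in paclitaxel-resistant against parental MM468 and by 0.24 in paclitaxel-resistant against adriamycin-resistant. The numbers that moved further were the following, and each of these settings changes by construction which genes are compared, how strict the threshold is, or how far low values are shrunk. In adriamycin-resistant against parental MM468, lower collagen genes numbered 4 with a minimum of 100 counts, 4 at a 4-fold threshold, 2 from TPM and 1 from FPKM (pseudocount 1), and higher genes 3 from TPM and 2 from FPKM with that pseudocount. In paclitaxel-resistant against parental MM468, lower genes numbered 3 with a minimum of 100 counts, 4 at 4-fold, 1 from either TPM or FPKM values when 1 was added, and 4 from TPM when 0.1 was added. In paclitaxel-resistant against adriamycin-resistant, lower genes numbered 8 without a minimum, 2 with a minimum of 100 counts, 2 at 4-fold, 1 from TPM and 0 from FPKM (pseudocount 1), and 2 from TPM (pseudocount 0.1). With a minimum of 100 counts, 6.09% of all genes were higher and 7.98% lower in adriamycin-resistant against parental MM468, and 12.5% and 11.5% in paclitaxel-resistant cells. The 7 other lists together had 22, 20 and 25 changed genes in the 3 comparisons. They had 7, 11 and 8 at 4-fold, 6, 13 and 14 from FPKM, and 9 in the first from TPM with a pseudocount of 1. From FPKM the ratio of type IV levels to parental was 0.623 in adriamycin-resistant and 2.73 in paclitaxel-resistant cells, against 0.597 and 2.88 from TPM. Of 531 fold changes of single collagen genes under the alternatives, 385 lay within the counting interval and 146 outside it. Of the 531, 11 had the opposite sign, all of changes under 2-fold, in COL9A2, COL11A2 and COL18A1, and 0 of a called change did. Depth limits genes near 0 counts, whose changes are bounds or wide intervals.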
